A study of Mus musculus with 12 samples.

Results

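The 8 genes H19, Igf2r, Grb10, Cdkn1c, Phlda2, Zim1, Meg3 and Rian are imprinted genes that most mouse tissues express from the maternal chromosome. They were picked by gene symbol, with earlier results of these data known, and are 8 of the 23336 gene symbols in the count table. All 8 passed the filter on low counts, which left 12814 genes for testing. The study set female embryonic stem cells (ESCs), wild type or labelled RlimKO, against male ESCs to follow X chromosome inactivation (XCI) without Rlim, a ubiquitin ligase gene on the X chromosome. RNA was sequenced from 12 libraries in 6 groups of 2. Differentiated libraries came from the female RlimKO line, the female WT line Pgk12.1 and the male WT line E14, after 3 days as embryoid bodies without LIF and 6 more days of culture in 7.5% O2. Undifferentiated libraries came from the same 3 lines, kept in medium with LIF, the cytokine that holds mouse ESCs in the pluripotent state. Every sample carries the strain label C57BL/6. The RlimKO genotype and the male sex were each a single line, so neither genotype nor sex can be told apart from line. The labels do not say whether replicates were separate cultures, and the p-values therefore reflect the spread of these libraries alone, which may be technical.

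Imprinted genes depend on a mark of DNA methylation from the egg or the sperm that leads, directly or indirectly, to 1 silent parental copy. The maternally expressed ones include several brakes on embryonic growth. They lie in clusters beside paternally expressed genes: H19 beside Igf2, Igf2r over its antisense RNA Airn, Cdkn1c and Phlda2 beside Kcnq1ot1, Zim1 beside Peg3, Grb10 beside Ddc, and Meg3 and Rian beside Dlk1, Rtl1 and Dio3. Cultured ESCs are known to lose or gain such marks as they are passaged. Counts summed over both copies do not tell the parental alleles apart. In these bulk libraries, fewer cells that express a gene and less RNA per cell cannot be told apart either.

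RefSeq gave promoter windows of 300 bases, 250 before a start and 50 after it, for 6 of the 8 genes in the build GRCm38.p6, which is the mm10 build of the counts. The windows printed, 5′ to 3′ on the gene's strand, are those of the 5 genes with a window that were called between the differentiated RlimKO-labelled and WT female cells. Capitals mark TGCCGC or its reverse complement GCGGCA, the letters that the imprint-protecting protein ZFP57 reads when they are methylated. The Meg3 window covers chr12:109540746-109541045 on the plus strand and the Rian window chr12:109603695-109603994 on the plus strand. The Igf2r window covers chr17:12769657-12769956 on the minus strand and the Grb10 window chr11:12037371-12037670 on the minus strand. The Zim1 window covers chr7:6696383-6696682 on the minus strand.
Meg3: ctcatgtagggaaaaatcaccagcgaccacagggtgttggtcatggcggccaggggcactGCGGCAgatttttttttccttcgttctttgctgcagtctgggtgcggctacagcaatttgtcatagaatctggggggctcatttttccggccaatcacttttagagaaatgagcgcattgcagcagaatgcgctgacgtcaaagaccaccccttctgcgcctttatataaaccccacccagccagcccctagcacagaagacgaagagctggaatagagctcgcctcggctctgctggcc
Rian: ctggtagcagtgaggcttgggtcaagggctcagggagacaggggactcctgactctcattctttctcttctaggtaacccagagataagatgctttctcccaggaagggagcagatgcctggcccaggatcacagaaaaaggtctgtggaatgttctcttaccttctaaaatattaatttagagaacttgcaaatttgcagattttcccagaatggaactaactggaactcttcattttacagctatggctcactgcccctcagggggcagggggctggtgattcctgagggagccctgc
Igf2r: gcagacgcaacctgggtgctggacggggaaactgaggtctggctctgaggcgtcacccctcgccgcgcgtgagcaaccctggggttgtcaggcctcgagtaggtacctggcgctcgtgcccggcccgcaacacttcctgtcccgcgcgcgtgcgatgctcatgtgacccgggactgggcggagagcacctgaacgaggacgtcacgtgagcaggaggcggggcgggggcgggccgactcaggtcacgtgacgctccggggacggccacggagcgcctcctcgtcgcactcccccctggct
Grb10: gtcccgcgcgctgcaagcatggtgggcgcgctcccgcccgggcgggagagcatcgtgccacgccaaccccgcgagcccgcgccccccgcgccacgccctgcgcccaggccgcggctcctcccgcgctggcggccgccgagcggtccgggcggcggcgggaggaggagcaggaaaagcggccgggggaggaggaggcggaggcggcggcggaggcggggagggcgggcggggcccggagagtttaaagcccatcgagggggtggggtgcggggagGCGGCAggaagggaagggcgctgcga
Zim1: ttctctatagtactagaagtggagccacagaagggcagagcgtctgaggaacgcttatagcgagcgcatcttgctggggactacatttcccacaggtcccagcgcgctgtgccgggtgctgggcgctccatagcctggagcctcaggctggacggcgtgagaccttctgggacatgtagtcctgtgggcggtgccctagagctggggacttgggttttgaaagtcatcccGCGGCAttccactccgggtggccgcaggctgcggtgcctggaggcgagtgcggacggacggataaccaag
The Grb10 window held 45 CG pairs and the Igf2r window 34, the Meg3 window 13 and the Rian window 0, against a median of 7 over all 32851 windows of this length. The motif stood once, as GCGGCA, in each of the Grb10, Meg3 and Zim1 windows, the last with 20 CG pairs. The Phlda2 window held 26 CG pairs and no motif. Other windows of Grb10 and Meg3, at further starts of these genes, held 9 and 1 CG pairs and no motif. The motif stood in 11.6% of all windows.

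Libraries held 2011919 to 5401940 counts in genes, and 1 CPM (counts per 1000000 of TMM-scaled library size, the unit of every level below) was worth 1.71 to 9.31 counts. The ribosomal precursor Rn45s took 6.36% to 67.7% of these counts, with the lowest share in differentiated male replicate 2 and the highest in differentiated RlimKO-labelled replicate 1. The differentiated male pair also differed most between its replicates, where the chi-square divided by its degrees of freedom was 26.9, and 1.92 to 2.44 in the remaining 5 pairs. The sample titles give differentiated male replicate 2 a library number far from that of replicate 1. They do not say whether this pair was prepared together. Rlim itself was present in every library. It stood at 290.1 and 299 CPM in differentiated RlimKO-labelled, 258 and 266 CPM in differentiated WT female, and 267 and 275 CPM in differentiated male libraries. Before differentiation it stood at 159.96 and 150.04 CPM in the RlimKO-labelled line, 267 and 282 CPM in WT females, and 212 and 273 CPM in males. The line is therefore called RlimKO-labelled throughout, since summed counts do not show which exons were read. The undifferentiated label fitted the 16 pluripotency markers followed, such as Pou5f1 and Nanog: all 16 had counts in each undifferentiated group, and their summed level was 120.1 to 333 CPM in differentiated and 2411 to 2861 CPM in undifferentiated libraries.

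Fold changes below are log2 values ± SE from edgeR's quasi-likelihood test in 1 model of all 12 libraries, n = 2 per group, and a gene was called when its Benjamini-Hochberg adjusted p over all tested genes was below 0.05. With 2 libraries against 2, an exact permutation test of 1 gene cannot go below p = 0.33.

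On differentiation most of the 8 genes changed in every line, and 4 of them, H19, Cdkn1c, Meg3 and Rian, rose in all 3 lines. In RlimKO-labelled cells 5 rose, 2 fell and 1 was not called, where 48.0% of all tested genes were called (26.4% higher and 21.6% lower). WT female cells gave the same counts, 5 higher, 2 lower and 1 not called, where 48.7% of all genes were called (26.5% higher and 22.2% lower). In male cells 7 rose, none fell and 1 was not called, where 54.0% of all genes were called (28.7% higher and 25.4% lower). The median change of the 8 genes was 2.59, 2.61 and 2.98 in RlimKO-labelled, WT female and male cells, against 0.10, 0.09 and 0.05 over all tested genes. Igf2r and Grb10 fell in both female lines and rose in the male line.

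**Figure D1:**
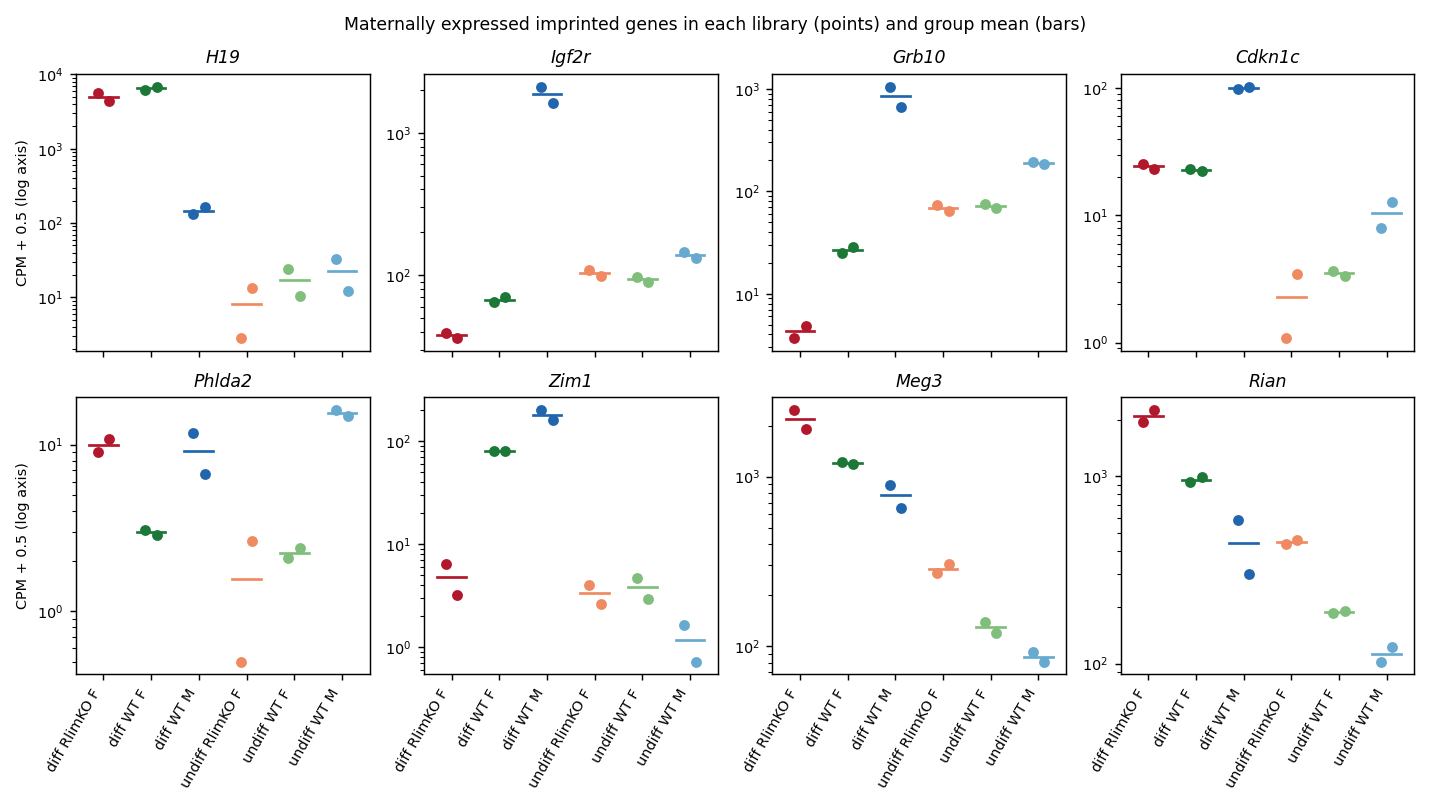
Level of each gene (CPM + 0.5, log axis) in each library (points), with group means as bars, for differentiated (diff) and undifferentiated (undiff) RlimKO-labelled female, WT female and WT male cells, n = 2 per group. H19 stands between 4422 and 6849 CPM in the 4 differentiated female libraries, while Igf2r and Grb10 stand highest in the differentiated male libraries.

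H19 is an untranslated RNA that shares enhancers with Igf2, the gene of a fetal growth factor. Its gene lies on the minus strand of chromosome 7, from 142575529 to 142578143. It stood at 5635 and 4422 CPM in differentiated RlimKO-labelled, 6248 and 6849 CPM in differentiated WT female, and 130.2 and 163 CPM in differentiated male libraries. Undifferentiated levels were 2.34 and 12.8 CPM in the RlimKO-labelled line, 23.6 and 10.0 CPM in WT females and 32.7 and 11.7 CPM in males. The 3 undifferentiated groups overlapped, and every differentiated library lay above all of them. The rise was 9.26 ± 0.55 in RlimKO-labelled (adjusted p = 1.08e-08), 8.62 ± 0.52 in WT female (adjusted p = 1.40e-08) and 2.80 ± 0.42 in male cells (adjusted p = 6.04e-05). The rise was larger than in males by 6.46 ± 0.67 in RlimKO-labelled cells (adjusted p = 0.000198) and by 5.82 ± 0.63 in WT females (adjusted p = 0.000354), each a log2 difference of changes. Both calls held in each of the 12 fits without 1 library.

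Igf2, the paternally expressed partner, was lower in both differentiated female lines than in males. It stood at 423 and 302 CPM in differentiated RlimKO-labelled, 1181 and 1104 CPM in differentiated WT female, and 7291 and 2954 CPM in differentiated male libraries. The groups did not overlap. Igf2 was lower than in males by a log2 fold change of -3.83 ± 0.46 in RlimKO-labelled cells (adjusted p = 0.000202) and -2.16 ± 0.43 in WT females (adjusted p = 0.0070), and the female lines were not called apart (-1.66 ± 0.43, adjusted p = 0.0539). The ratio of H19 to Igf2 counts, used only to compare libraries, was 13.3 and 14.7 in differentiated RlimKO-labelled, 5.29 and 6.2 in differentiated WT female, and 0.0179 and 0.0552 in differentiated male libraries. In undifferentiated libraries Igf2 had 1 to 73 counts, and the ratio is not compared there.

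Igf2r, the receptor that binds IGF2 and delivers it for breakdown, lies on the minus strand of chromosome 17 from 12682406 to 12769664. It stood at 38.8 and 35.6 CPM in differentiated RlimKO-labelled, 64.3 and 69.4 CPM in differentiated WT female, and 2107 and 1621 CPM in differentiated male libraries. Undifferentiated levels were 107 and 98.0 CPM in the RlimKO-labelled line, 96.6 and 89.1 CPM in WT females, and 145 and 132 CPM in males. No neighbouring groups in the order of levels overlapped, and the differentiated male pair stood far above the rest. Differentiation brought a fall of Igf2r in RlimKO-labelled cells (-1.47 ± 0.18, adjusted p = 9.64e-06) and in WT female cells (-0.47 ± 0.16, adjusted p = 0.0271), and a rise in male cells (3.75 ± 0.17, adjusted p = 6.60e-10). The fall in WT females lost its call on removal of undifferentiated WT female replicate 1 (adjusted p = 0.0898) or differentiated WT female replicate 1 (adjusted p = 0.162). After differentiation Igf2r was 50.4-fold lower in RlimKO-labelled than in male cells (-5.65 ± 0.19, adjusted p = 9.54e-11) and 27.9-fold lower in WT female than in male cells (-4.80 ± 0.18, adjusted p = 3.86e-10). Leaving out single libraries gave -5.86 to -5.48 and -4.97 to -4.58 for these 2 fold changes.

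Airn, the paternally expressed RNA that runs antisense through Igf2r and silences it on the same chromosome copy, appeared on differentiation in every line. It stood at 44.1 and 52.9 CPM in differentiated RlimKO-labelled, 57.0 and 48.0 CPM in differentiated WT female, and 41.8 and 24.6 CPM in differentiated male libraries. Undifferentiated female libraries held 0 counts of Airn, and undifferentiated male libraries held 1 and 5. Set against 3 counts over the group, the rise was at least 67.8-fold in RlimKO-labelled and at least 70.9-fold in WT female cells. No difference in Airn between differentiated female and male cells was called (0.57 ± 0.28, adjusted p = 0.204, for RlimKO-labelled cells and 0.68 ± 0.27, adjusted p = 0.142, for WT females). The ratio of Igf2r to Airn counts was 0.880 and 0.673 in differentiated RlimKO-labelled, 1.13 and 1.45 in differentiated WT female, and 50.4 and 65.9 in differentiated male libraries. As described, the library type does not mark the strand, so reads of Igf2r and Airn cannot be told apart where the genes overlap.

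Grb10 encodes an adaptor that damps signalling from the insulin and IGF1 receptors, and lies on the minus strand of chromosome 11 from 11930508 to 12038683. Its levels were 3.19 and 4.39 CPM in differentiated RlimKO-labelled, 24.5 and 27.8 CPM in differentiated WT female, and 1051 and 659 CPM in differentiated male libraries. In undifferentiated cells it stood at 73.0 and 63.9 CPM in the RlimKO-labelled line, 74.6 and 68.2 CPM in WT females and 190.5 and 185 CPM in males. Only the undifferentiated female groups overlapped, and the differentiated RlimKO-labelled pair held 24 counts in all. Grb10 fell on differentiation by 4.09 ± 0.30 on the log2 scale in RlimKO-labelled (adjusted p = 7.66e-08) and by 1.45 ± 0.22 in WT female cells (adjusted p = 7.95e-05), and rose by 2.18 ± 0.19 in male cells (adjusted p = 3.79e-07). The fall was larger in RlimKO-labelled than in WT female cells (-2.64 ± 0.38, adjusted p = 0.0145), a call that held in 6 of the 12 fits without 1 library. It was lost without either differentiated RlimKO-labelled library, either undifferentiated WT female library, differentiated WT female replicate 1 or undifferentiated RlimKO-labelled replicate 1, with adjusted p = 0.0548 to 0.168. After differentiation Grb10 was 213-fold lower in RlimKO-labelled than in male cells (-7.73 ± 0.29, adjusted p = 3.04e-10) and 32.7-fold lower in WT female than in male cells (-5.03 ± 0.23, adjusted p = 4.52e-09). It was also lower before differentiation, by a log2 fold change of -1.46 ± 0.20 for RlimKO-labelled cells (adjusted p = 0.000718) and -1.40 ± 0.20 for WT females (adjusted p = 0.00137). Ddc, the neighbour of Grb10 that the heart expresses paternally, stood at 5.84 and 5.61 CPM, 21.5 and 20.9 CPM, and 14.5 and 3.87 CPM in the same differentiated groups.

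**Figure D2:**
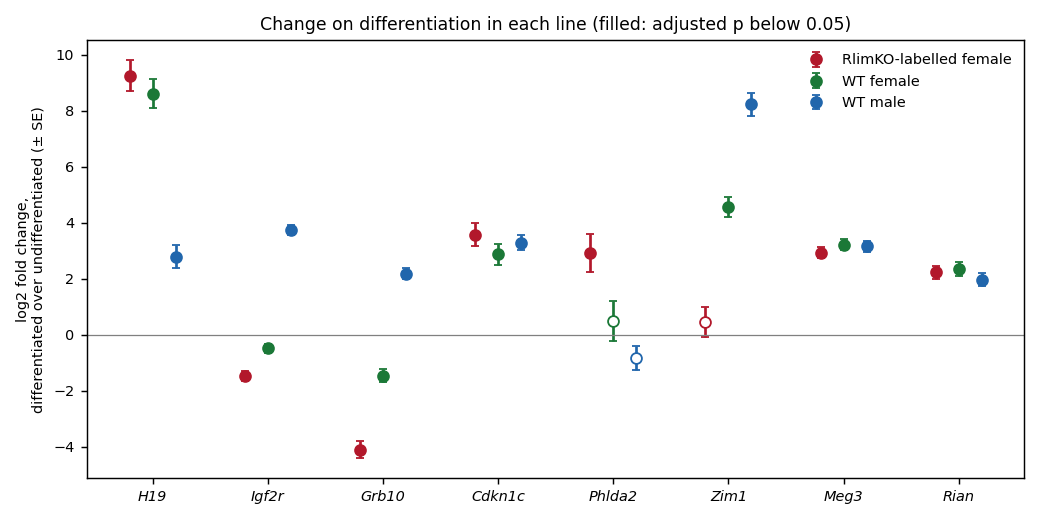
Log2 fold change on differentiation ± SE (differentiated over undifferentiated) of each gene in RlimKO-labelled female, WT female and male cells, with filled points where the adjusted p was below 0.05. Igf2r and Grb10 lie below 0 in both female lines and above 0 in the male line, and Zim1 lies at 0.47, 4.58 and 8.23 in RlimKO-labelled, WT female and male cells.

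Cdkn1c and Phlda2 are neighbours on chromosome 7, on the minus strand from 143458339 to 143461050 and from 143501545 to 143503150. Cdkn1c encodes the cell-cycle inhibitor p57KIP2. It stood at 25.0 and 22.7 CPM in differentiated RlimKO-labelled, 22.5 and 22.0 CPM in differentiated WT female, and 98.0 and 102 CPM in differentiated male libraries. Undifferentiated levels were 0.584 and 2.98 CPM in the RlimKO-labelled line, 3.15 and 2.86 CPM in WT females, and 7.43 and 12.3 CPM in males, resting on 8, 12 and 76 counts per group. All differentiated libraries lay above all undifferentiated ones. Cdkn1c rose by 3.58 ± 0.42 in RlimKO-labelled (adjusted p = 7.49e-06), 2.88 ± 0.38 in WT female (adjusted p = 2.37e-05) and 3.29 ± 0.27 in male cells (adjusted p = 1.78e-07), and no difference between lines in this change was called. It was lower in both female lines than in males after differentiation, by a log2 fold change of -2.08 ± 0.25 for RlimKO-labelled cells (adjusted p = 0.000202) and -2.17 ± 0.25 for WT females (adjusted p = 0.000149). Before differentiation these were -2.37 ± 0.45 (adjusted p = 0.00498) and -1.75 ± 0.42 (adjusted p = 0.0227). The first was lost without undifferentiated RlimKO-labelled replicate 1 (adjusted p = 0.0560) or undifferentiated male replicate 2 (adjusted p = 0.0670). The second was lost without either undifferentiated WT female library (adjusted p = 0.152 and 0.167) or undifferentiated male replicate 2 (adjusted p = 0.203).

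Phlda2, a pleckstrin-homology protein that limits growth of the placenta, was at low counts throughout. It stood at 8.50 and 10.2 CPM in differentiated RlimKO-labelled, 2.56 and 2.38 CPM in differentiated WT female, and 11.3 and 6.12 CPM in differentiated male libraries. Before differentiation it stood at 0 and 2.13 CPM in the RlimKO-labelled line, 1.58 and 1.91 CPM in WT females, and 15.6 and 14.3 CPM in males. The undifferentiated male pair was the highest group and the undifferentiated female groups overlapped near the bottom, with 5 and 7 counts in all for the RlimKO-labelled and WT female pairs. Phlda2 rose on differentiation in RlimKO-labelled cells (2.94 ± 0.67, adjusted p = 0.00242), while the values were 0.50 ± 0.71 in WT female (adjusted p = 0.588) and -0.81 ± 0.44 in male cells (adjusted p = 0.128). The RlimKO-labelled value was 8.12 without undifferentiated replicate 2, which held all 5 counts of its pair, and 2.03 without replicate 1. Without differentiated male replicate 1 the male value was -1.22 and was called (adjusted p = 0.00368). In undifferentiated cells it was lower than in males in RlimKO-labelled cells (-3.59 ± 0.64, adjusted p = 0.00333) and in WT females (-3.07 ± 0.61, adjusted p = 0.00894), where the call was lost without any 1 of the 4 libraries compared (adjusted p = 0.0501 to 0.102). After differentiation its log2 fold change was 0.16 ± 0.45 for the RlimKO-labelled line against males (adjusted p = 0.858) and -1.76 ± 0.50 for WT females against males (adjusted p = 0.0427). The last was called in 4 of the 12 fits without 1 library, those without a differentiated male or an undifferentiated RlimKO-labelled library, with adjusted p up to 0.264 in the others.

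Kcnq1ot1, the paternal antisense RNA that silences Cdkn1c and Phlda2 on the same copy, was higher in the female lines in both states. It stood at 908 and 944 CPM in differentiated RlimKO-labelled, 941 and 923 CPM in differentiated WT female, and 298 and 213 CPM in differentiated male libraries. Its undifferentiated levels were 520 and 584 CPM, 497 and 443 CPM, and 221 and 262 CPM in the same order of lines. Against males the log2 fold change was 1.86 ± 0.17 for RlimKO-labelled cells (adjusted p = 2.98e-05) and 1.87 ± 0.17 for WT females (adjusted p = 2.85e-05) after differentiation, and 1.19 ± 0.17 (adjusted p = 0.000795) and 0.96 ± 0.17 (adjusted p = 0.00483) before it.

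Zim1 encodes a zinc finger protein of the Peg3 cluster and lies on the minus strand of chromosome 7 from 6671269 to 6696450. It stood at 5.84 and 2.68 CPM in differentiated RlimKO-labelled, 78.3 and 78.4 CPM in differentiated WT female, and 199 and 157 CPM in differentiated male libraries. Undifferentiated levels were 3.50 and 2.13 CPM in the RlimKO-labelled line, 4.20 and 2.38 CPM in WT females and 1.11 and 0.220 CPM in males. These rested on 11, 13 and 4 counts per group, and the differentiated RlimKO-labelled pair held 22. The differentiated RlimKO-labelled pair overlapped the undifferentiated female pairs, and the other differentiated pairs stood well above them. Zim1 rose in WT female (4.58 ± 0.35, adjusted p = 1.50e-07) and male cells (8.23 ± 0.40, adjusted p = 1.63e-09), and its value in RlimKO-labelled cells was 0.47 ± 0.54 (adjusted p = 0.50). After differentiation it was 20.5-fold lower in RlimKO-labelled than in WT female cells (-4.36 ± 0.32, adjusted p = 7.53e-06), and every fit without 1 library called this, with fold changes of -4.86 to -3.74. The difference between these 2 lines in the change itself was -4.10 ± 0.74 (adjusted p = 0.0425) and was lost without any 1 of the 8 female libraries (adjusted p = 0.0561 to 0.259).

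The paternally expressed genes beside Zim1 rose in all 3 lines and were not called between the female lines. Peg3, a zinc finger gene of the same cluster, stood at 2847 and 3110.1 CPM in differentiated RlimKO-labelled, 2914 and 2683 CPM in differentiated WT female, and 2382 and 1036 CPM in differentiated male libraries. It rose by 5.12 ± 0.34 in RlimKO-labelled (adjusted p = 2.74e-08), 4.90 ± 0.33 in WT female (adjusted p = 4.32e-08) and 4.44 ± 0.32 in male cells (adjusted p = 5.52e-08). Usp29, which shares the Peg3 promoter region, stood at 29.2 and 30.5 CPM in differentiated RlimKO-labelled, 27.8 and 28.9 CPM in differentiated WT female, and 33.8 and 16.2 CPM in differentiated male libraries. Between differentiated RlimKO-labelled and WT female cells, Peg3 had a log2 fold change of 0.09 ± 0.27 (adjusted p = 0.926).

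**Figure D3:**
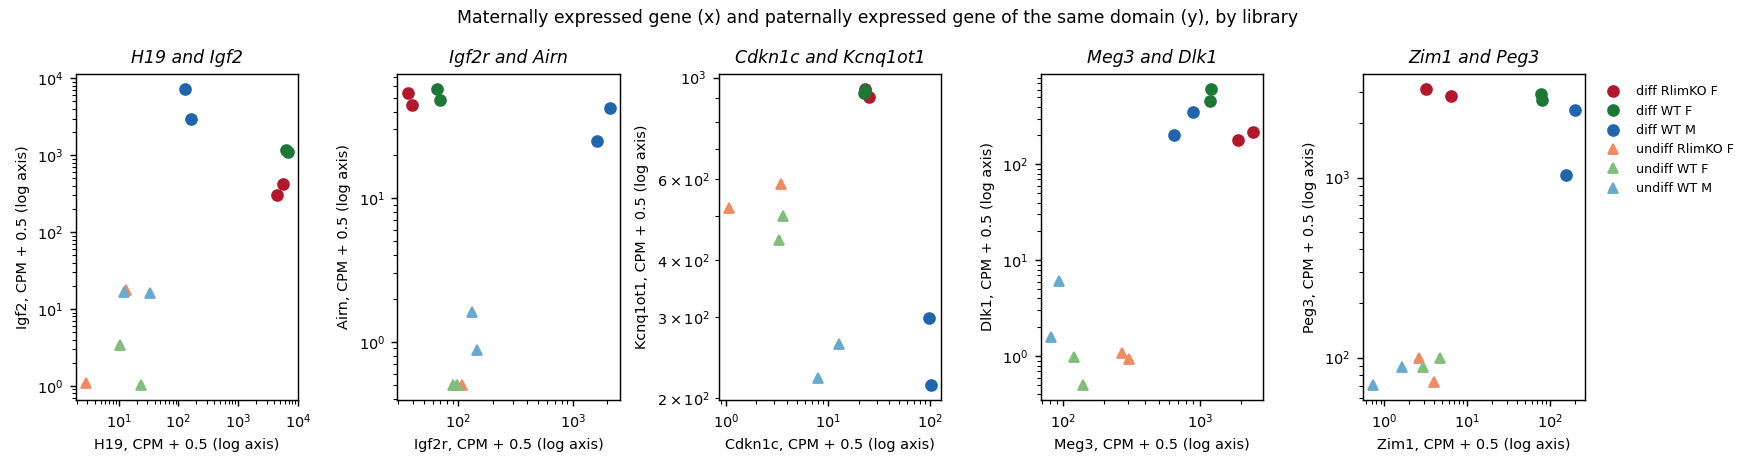
Level (CPM + 0.5, both axes log) of a maternally expressed gene (x) against a paternally expressed gene of its cluster (y), 1 point per library, circles for differentiated and triangles for undifferentiated cells, n = 2 per group. Differentiated male libraries lie at high Igf2 and high Igf2r, with H19 below the differentiated female and above the undifferentiated libraries. Differentiated RlimKO-labelled libraries lie at low Zim1 with Peg3 of 2847 and 3110.1 CPM.

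Meg3 and Rian are neighbouring untranslated RNAs on the plus strand of chromosome 12, from 109541001 to 109571726 and from 109603940 to 109661716, and Rian hosts many small nucleolar RNAs. Meg3 stood at 2468 and 1908 CPM in differentiated RlimKO-labelled, 1221 and 1186 CPM in differentiated WT female, and 897 and 649 CPM in differentiated male libraries. Its undifferentiated levels were 268 and 304 CPM in the RlimKO-labelled line, 138 and 119 CPM in WT females and 91.7 and 80.7 CPM in males. In both states the order was the RlimKO-labelled line, then WT females, then males, with no overlap. Meg3 rose on differentiation by 2.93 ± 0.19 in RlimKO-labelled (adjusted p = 2.85e-08), 3.23 ± 0.20 in WT female (adjusted p = 1.86e-08) and 3.17 ± 0.20 in male cells (adjusted p = 1.37e-08).

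Rian followed the same order of lines in each state. It stood at 1932 and 2251 CPM in differentiated RlimKO-labelled, 929 and 985 CPM in differentiated WT female, and 581 and 302 CPM in differentiated male libraries. Undifferentiated levels were 431 and 454 CPM, 185 and 190.2 CPM, and 102 and 122 CPM in RlimKO-labelled, WT female and male libraries. The differentiated male pair spanned the undifferentiated RlimKO-labelled pair, and no other neighbouring groups overlapped. The rise on differentiation was 2.24 ± 0.24 in RlimKO-labelled (adjusted p = 2.77e-06), 2.35 ± 0.24 in WT female (adjusted p = 2.06e-06) and 1.97 ± 0.24 in male cells (adjusted p = 7.68e-06). Differences between lines in the change of Meg3 or Rian were not called.

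Between the undifferentiated female lines, where 0.242% of all tested genes were called (0.101% higher and 0.140% lower), 2 of the 8 genes were called, both higher in RlimKO-labelled cells. These were Meg3 (1.16 ± 0.19, adjusted p = 0.0321) and Rian (1.24 ± 0.24, adjusted p = 0.0466), and the calls held in 5 and 2 of the 12 fits without 1 library. The Meg3 call was lost without any 1 of the 4 libraries compared (adjusted p = 0.228 to 0.319), either differentiated WT female library (0.0544 and 0.0728) or undifferentiated male replicate 2 (0.0549). The Rian call held only without 1 or the other differentiated male library, with adjusted p up to 0.398 in the other fits. Between the differentiated female lines, where 2.59% of genes were called (1.05% higher and 1.55% lower), 2 were higher and 3 lower in RlimKO-labelled cells. Meg3 (0.86 ± 0.18, adjusted p = 0.0192) and Rian (1.13 ± 0.23, adjusted p = 0.0148) were the higher ones, each called in 8 of the 12 fits and lost without any 1 of the 4 libraries compared, with adjusted p up to 0.237 and 0.200. The lower ones were Zim1, Grb10 (-2.70 ± 0.31, adjusted p = 0.000424) and Igf2r (-0.85 ± 0.17, adjusted p = 0.0157), of which Igf2r was lost without any 1 of the same 4 libraries (adjusted p up to 0.265). H19, Cdkn1c and Phlda2 were not called between the female lines in either state, with a log2 fold change of 1.92 ± 0.52 for Phlda2 after differentiation (adjusted p = 0.0688). For H19 after differentiation the log2 fold change was -0.38 and the female groups did not overlap. H19 was called without differentiated male replicate 1, at -0.43. Phlda2 was called with no filter (adjusted p = 0.00624), with only the libraries compared (0.000493), without both libraries of extreme Rn45s share (0.00127) and in 4 of the 12 fits, those without a differentiated male (0.00046 and 0.000657) or an undifferentiated RlimKO-labelled library (0.0417 and 0.0424).

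Other transcripts of the Meg3 cluster were measured beside them. Rtl1, a retrotransposon-derived gene expressed from the paternal copy with a maternal antisense RNA whose reads cannot be told from its own here, was higher in differentiated RlimKO-labelled than WT female cells (1.04 ± 0.22, adjusted p = 0.0232). Mirg, a maternally expressed microRNA host RNA, stood at 122 and 101 CPM in differentiated RlimKO-labelled, 45.6 and 45.0 CPM in differentiated WT female, and 16.8 and 11.2 CPM in differentiated male libraries. It was higher in RlimKO-labelled than in WT female cells after differentiation (1.29 ± 0.27, adjusted p = 0.0187). Dlk1, the paternally expressed Notch-family ligand of the cluster, was lower in RlimKO-labelled cells (-1.44 ± 0.28, adjusted p = 0.0136), at 217 and 178 CPM in differentiated RlimKO-labelled, 611 and 452 CPM in differentiated WT female, and 348 and 204 CPM in differentiated male libraries. The ratio of Meg3 to Dlk1 counts was 11.4 and 10.7 in differentiated RlimKO-labelled, 2.0 and 2.62 in differentiated WT female, and 2.58 and 3.18 in differentiated male libraries.

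The chromosome around Meg3 and Rian was followed through the 99 other tested genes that start within 5 Mb. Between the differentiated female lines these neighbours had a median log2 fold change of 0.06, with 3 higher and 2 lower, and the median over all autosomal genes was -0.0049. Split at 0.5 Mb, a distance chosen after the values were seen, the 27 near neighbours had a median of 1.19 and 26 positive values, and the 72 farther ones a median of -0.11 and 29 positive values. The near ones were Dlk1, Rtl1, Mirg and small RNA genes of the same cluster, whose reads cannot be told from those of the long RNAs that contain them. Between the undifferentiated female lines the near neighbours had a median of 1.47 and the farther ones 0.31. Of the 72 farther ones, 53 were positive and 1 was called higher there, beside an autosomal median of -0.01. Against males the farther neighbours were higher too: after differentiation their median was 0.77 for the RlimKO-labelled line, with 30 called higher and 0 lower, and 0.79 for WT females, with 32 called higher and 0 lower. The median over all autosomal genes was -0.04 and -0.02 in these 2 comparisons. Before differentiation, 25 of the 72 farther genes were called higher and 0 lower in RlimKO-labelled against male cells, beside an autosomal median of -0.13. The near and farther medians there were 1.65 and 0.55. For WT female against male cells in that state the near median was 0.04, with 15 of 27 values positive. The farther median was 0.21, with 12 of 72 called higher, beside 0.58 for Meg3 and 0.74 for Rian. This stretch of chromosome 12 was thus higher along with Meg3 and Rian in the differentiated comparisons with males. It was also higher in undifferentiated RlimKO-labelled against male cells. Its part in the values of Meg3 and Rian was not tested. Around H19, Cdkn1c and Phlda2 (88 neighbours), Igf2r (41), Zim1 (62) and Grb10 (11), the neighbours' medians between lines lay between -0.30 and 0.17.

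**Figure D4:**
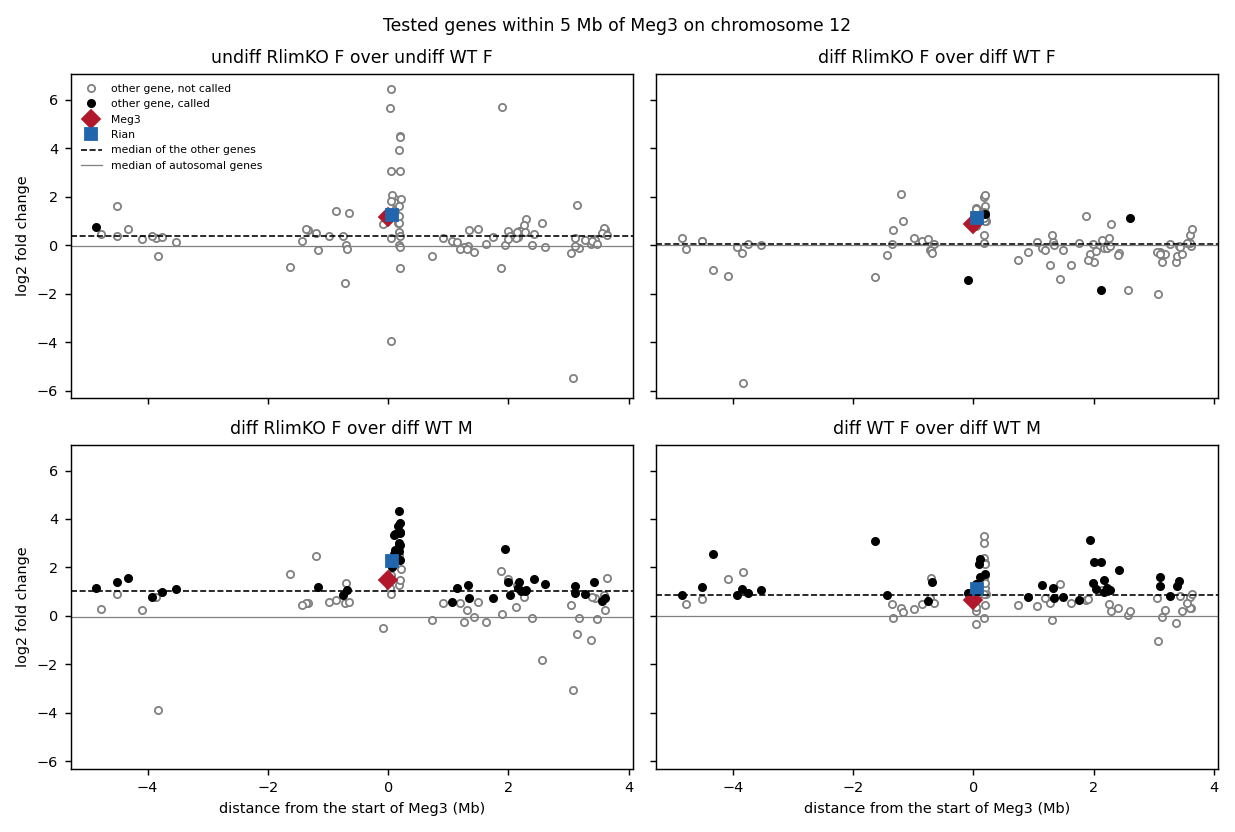
Log2 fold change of tested genes by distance from the start of Meg3 in 4 comparisons, with Meg3 and Rian marked, filled points for adjusted p below 0.05, a dashed line at the median of the other genes and a grey line at the autosomal median. Between the female lines the genes within 0.5 Mb of Meg3 have medians of 1.47 before and 1.19 after differentiation, and those farther away 0.31 and -0.11, while in both comparisons with males most points across the whole window lie above 0.

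Against male cells, the female lines shared the male libraries, so the comparisons are given side by side. After differentiation RlimKO-labelled cells had 3 of the 8 genes higher, 4 lower and 1 not called, where 11.6% of all tested genes were called (5.65% higher and 5.97% lower). WT female cells had 3 higher and 5 lower, where 8.97% were called (4.67% higher and 4.29% lower). H19, Meg3 and Rian were the higher ones: H19 by 5.10 ± 0.42 (adjusted p = 8.49e-06) and 5.48 ± 0.43 (adjusted p = 4.75e-06) in RlimKO-labelled and WT female cells, Meg3 by 1.5 ± 0.18 (adjusted p = 0.000202) and 0.64 ± 0.18 (adjusted p = 0.0391), and Rian by 2.25 ± 0.23 (adjusted p = 8.50e-05) and 1.12 ± 0.23 (adjusted p = 0.00807). Zim1 was lower by a log2 fold change of -5.54 ± 0.32 in RlimKO-labelled (adjusted p = 1.03e-07) and -1.18 ± 0.22 in WT female cells (adjusted p = 0.00503). In WT females, Zim1 and Rian were not called without either differentiated WT female library (adjusted p up to 0.0921 and 0.0745), nor was Meg3, which was also lost without any 1 of the undifferentiated RlimKO-labelled or male libraries (adjusted p up to 0.190). A model of only the libraries compared kept calls for H19, Igf2r and Grb10 in WT females but not for Cdkn1c (adjusted p = 0.0505), Phlda2 (adjusted p = 0.199), Zim1 (adjusted p = 0.127), Meg3 (adjusted p = 0.258) and Rian (adjusted p = 0.211). In RlimKO-labelled cells that model ended the calls of Meg3 (adjusted p = 0.0991) and Rian (adjusted p = 0.0855).

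Before differentiation RlimKO-labelled cells had 2 of the 8 genes higher than in males, 3 lower and 3 not called, where 10.0% of all genes were called (4.60% higher and 5.41% lower). Meg3 (1.73 ± 0.19, adjusted p = 0.000132) and Rian (1.97 ± 0.24, adjusted p = 0.000272) were higher. The genes not called had log2 fold changes of -1.36 for H19, 2.22 for Zim1 and -0.43 for Igf2r. With no filter, edgeR called H19 lower (-1.30, adjusted p = 0.0003) and Zim1 higher (2.28, adjusted p = 0.0321) in these cells. WT female cells had none higher, 4 lower and 4 not called, where 6.63% were called (3.12% higher and 3.50% lower). The 4 were Grb10, Phlda2, Cdkn1c and Igf2r, and Igf2r (-0.57 ± 0.16, adjusted p = 0.0472) was called in 2 of the 12 fits, those without 1 or the other differentiated male library, with adjusted p up to 0.337 in the others. RLE factors (adjusted p = 0.0825), TMM from autosomal genes (0.0904), totals without Rn45s and Lars2 (0.0718), no filter (0.0752), a stricter filter (0.0724) and DESeq2 (0.0818) also ended the Igf2r call. DESeq2 gave another tally in WT females, 3 higher and 3 lower: it called Zim1 (2.60, adjusted p = 0.0468), Meg3 (0.63, adjusted p = 0.0350) and Rian (0.79, adjusted p = 0.0183) as higher. So did edgeR with no filter, with adjusted p = 0.0115, 0.0136 and 0.000562 in the same order of genes. It also called these genes higher without 1 or the other differentiated male library, at 2.54, 0.65 and 0.80 without replicate 1. In the model of all libraries Meg3 and Rian had values of 0.58 ± 0.19 (adjusted p = 0.0923) and 0.74 ± 0.24 (adjusted p = 0.0807) and Zim1 2.47 ± 0.72 (adjusted p = 0.0549) in WT females. Further edgeR settings called Zim1 higher: TMM from autosomal genes (adjusted p = 0.0468), totals without Rn45s and Lars2 (0.04975), a stricter filter (0.0486) and a replicate block (0.0408). With only the libraries compared, edgeR called Meg3 (adjusted p = 0.000505) and Rian (2.998e-06) higher.

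The change on differentiation itself differed between RlimKO-labelled and WT female cells for 2 of the 8 genes, Grb10 and Zim1, both with the lower change in RlimKO-labelled cells, where 0.203% of all tested genes were called (0.0624% higher and 0.140% lower). Igf2r (-1.0 ± 0.24, adjusted p = 0.128) was not called there, but was called by DESeq2 (0.0469), with no filter (0.0149), with only the libraries compared (0.000329), without both libraries of extreme Rn45s share (0.00274) and without 1 or the other differentiated male library (0.00053 and 0.000921). Between RlimKO-labelled and male cells it differed for 5 genes, where 2.61% were called (1.51% higher and 1.09% lower), and between WT female and male cells for 4 genes, where 1.39% were called (0.882% higher and 0.507% lower). H19, Igf2r, Grb10 and Zim1 were called in both comparisons. Phlda2 was called only for RlimKO-labelled against male cells (3.75 ± 0.81, adjusted p = 0.0271), and that call held in 4 of the 12 fits without 1 library: it was lost without any 1 of the undifferentiated WT female or male libraries, either differentiated RlimKO-labelled library, undifferentiated RlimKO-labelled replicate 1 or differentiated WT female replicate 2 (adjusted p up to 0.146). For Zim1 the difference between WT female and male cells (-3.65 ± 0.75, adjusted p = 0.0288) was lost without any 1 of the 4 WT female or the undifferentiated male libraries (adjusted p up to 0.212). Igf2r had the smallest adjusted p of the 8 in both comparisons with males, with differences of -5.22 ± 0.24 (adjusted p = 1.34e-08) and -4.23 ± 0.23 (adjusted p = 1.06e-07).

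Markers of other cell types were followed by their summed levels and by how many tested markers were called. The 10 fibroblast markers in the table, of which 9 had counts and Fap was at 0 (1 of them, Dcn, is also among the other maternally expressed genes below), summed to 11730 and 11440 CPM in differentiated RlimKO-labelled, 8364 and 7200 CPM in differentiated WT female, and 9546 and 3083 CPM in differentiated male libraries, against 1.75 to 63.5 CPM in undifferentiated ones. The 15 endoderm markers all had counts and summed to 568 and 513 CPM, 819 and 839 CPM, and 979 and 1143 CPM in the same differentiated groups. The 11 blood and endothelial markers all had counts and summed to 279 and 294 CPM, 199 and 196 CPM, and 644 and 90.1 CPM, with the highest and the lowest sum in the male pair. The 12 trophoblast markers summed to 146 and 145 CPM, 60.4 and 60.7 CPM, and 192 and 157 CPM, and Tpbpa was at 0 in all of these groups. The 13 mesoderm and cardiac markers summed to 131 and 119 CPM, 206 and 183 CPM, and 207 and 296 CPM, with Mesp1 at 0 in each group. The 10 neuroectoderm markers summed to 45.7 and 48.8 CPM, 133 and 146 CPM, and 83.8 and 57.0 CPM, with Sox1, Neurog2 and Zic1 at 0. Remaining pluripotency markers summed to 173 and 152 CPM, 333 and 328 CPM, and 120.1 and 273 CPM. Between the differentiated RlimKO-labelled and WT female cells, 6 of 16 pluripotency, 3 of 10 mesoderm and 1 of 6 neuroectoderm markers were lower, 1 of 7 trophoblast markers was higher, and of 13 endoderm markers 1 was higher and 3 lower. Of all tested genes, 1.05% were higher and 1.55% lower there. Of the 9 fibroblast and 10 blood markers tested between these lines, edgeR called 0 and 0, with 1 and 2 at an unadjusted p below 0.05, and DESeq2 called 0 and 1. For RlimKO-labelled against male cells, 7 of 10 mesoderm, 5 of 13 endoderm and 2 of 7 trophoblast markers were lower. So was 1 marker each of the pluripotency, fibroblast and blood lists, and none was higher. Of all tested genes, 5.65% were higher and 5.97% lower. DESeq2 called 4 mesoderm, 5 endoderm and 0 trophoblast markers in this comparison. For WT female against male cells, 6 of 16 pluripotency and 1 of 6 neuroectoderm markers were higher. Lower were 3 of 10 mesoderm, 1 of 7 trophoblast and 1 of 9 fibroblast markers, and of 13 endoderm markers 1 was higher and 2 lower. All tested genes gave 4.67% higher and 4.29% lower. Here DESeq2 called 6 pluripotency, 3 endoderm and 1 mesoderm markers. The part of cell makeup in the differences between lines was not tested.

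Of 35 other maternally expressed imprinted genes followed, 22 were tested. On differentiation 10 rose and 2 fell in RlimKO-labelled, 11 rose and 1 fell in WT female, and 11 rose and 2 fell in male cells, where 48.0%, 48.7% and 54.0% of all tested genes were called in these lines. The actin-binding gene Cobl fell in all 3 lines, at 2.66 and 2.93 CPM in differentiated against 180.4 and 185 CPM in undifferentiated RlimKO-labelled libraries (-5.99 ± 0.25, adjusted p = 8.15e-10). Gnas, the stimulatory G protein alpha subunit, rose in all 3, by 1.95 ± 0.21 in RlimKO-labelled (adjusted p = 4.01e-06), 3.13 ± 0.23 in WT female (adjusted p = 8.19e-08) and 3.14 ± 0.22 in male cells (adjusted p = 3.74e-08). Osbpl5, a lipid transfer gene of the Cdkn1c cluster, also rose in all 3, and stood at 25.0 and 24.9 CPM in differentiated RlimKO-labelled, 36.3 and 36.6 CPM in differentiated WT female, and 21.8 and 30.2 CPM in differentiated male libraries. It had 3, 1 and 22 counts in all in the undifferentiated RlimKO-labelled, WT female and male pairs. Between the differentiated female lines Mirg alone was called. Asb4, a ubiquitin ligase adaptor gene, was lower than in males after differentiation by -2.24 ± 0.49 in RlimKO-labelled (adjusted p = 0.0110) and -1.70 ± 0.46 in WT female cells (adjusted p = 0.0347), with 83.3 and 24.1 CPM in the unequal male pair.

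The list for imprint maintenance and DNA methylation held 14 tested genes. Not all of them place or keep methylation, as Tet1, Tet2, Tet3 and Ctcf were among them. Of the 14, 7 fell, 3 rose and 4 were not called on differentiation in RlimKO-labelled cells, where 21.6% of all tested genes fell. In WT female cells 11 fell and 3 rose, where 22.2% of all genes fell, and in male cells 11 fell and 2 rose, where 25.4% fell. Zfp57, whose protein guards imprints, fell by 1.66 ± 0.16 on the log2 scale in RlimKO-labelled (adjusted p = 1.23e-06), by 1.75 ± 0.16 in WT female (adjusted p = 5.54e-07) and by 1.29 ± 0.15 in male cells (adjusted p = 6.95e-06). In undifferentiated libraries Zfp57 stood at 169.9 and 185 CPM in the RlimKO-labelled line, 210.03 and 196 CPM in WT females, and 123 and 110.2 CPM in males, and was higher than in males in RlimKO-labelled cells (0.61 ± 0.15, adjusted p = 0.0207) and in WT females (0.80 ± 0.15, adjusted p = 0.00684). The de novo methyltransferase Dnmt3b was lower than in males before differentiation, by -0.96 ± 0.18 in RlimKO-labelled (adjusted p = 0.00401) and -1.01 ± 0.18 in WT female cells (adjusted p = 0.00448). Its cofactor Dnmt3l was lower in undifferentiated RlimKO-labelled than WT female cells (-2.28 ± 0.42, adjusted p = 0.0437), at 14.6 and 13.6 CPM against 63.0 and 73.4 CPM.

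Within the insulin-like growth factor pathway, on which Igf2r and Grb10 act, 15 of 17 genes were tested and none was higher in either female line than in males. After differentiation 5 were lower in RlimKO-labelled and 7 in WT female cells, where 5.97% and 4.29% of all tested genes were lower. Before it 2 and 4 were lower, where 5.41% and 3.50% of all genes were. Igf1r, the receptor that carries the growth signal, stood at 185 and 208 CPM in differentiated RlimKO-labelled, 138 and 127 CPM in differentiated WT female, and 329 and 465 CPM in differentiated male libraries. It was lower than in males after differentiation by -1.01 ± 0.17 in RlimKO-labelled (adjusted p = 0.00220) and -1.58 ± 0.17 in WT female cells (adjusted p = 0.000118). Among 5 tested cyclin kinase inhibitors other than Cdkn1c, Cdkn2b was lower in differentiated RlimKO-labelled than WT female cells (-2.11 ± 0.37, adjusted p = 0.00735), at 6.91 and 3.90 CPM against 22.1 and 22.0 CPM.

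For each of the 8 genes, the 2 genes with the most similar profile of log2 CPM were sought among 9302 genes over the 12 libraries, which share 6 groups, so these Pearson r values are descriptions of group patterns. The closest were Plagl1 (0.98) and Mas1 (0.97) for H19, Dag1 (0.96) and Jup (0.93) for Igf2r, and Ddx58 (0.92) and Nrbf2 (0.90) for Grb10. For Cdkn1c they were Fbln1 (0.98) and Tbc1d9b (0.97), and for Phlda2 Epb4.1l1 (0.94) and Mbtd1 (0.93). Ctsd (0.96) and Pold4 (0.94) were closest to Zim1, Erbb2ip (0.98) and Leprel4 (0.98) to Meg3, and Atxn7l3b (0.97) and Sav1 (0.97) to Rian. Plagl1, an imprinted zinc finger gene that most tissues express from the paternal copy, averaged 1281 CPM in differentiated RlimKO-labelled, 1109 CPM in differentiated WT female and 46.1 CPM in differentiated male libraries. Igf2r and Grb10 correlated with each other at 0.89, which ranked Grb10 at place 4 for Igf2r and Igf2r at place 3 for Grb10.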

How the data were processed

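The authors deposited 1 table of raw read counts per gene for 12 libraries, made by template-switching reverse transcription, PCR and Nextera tagmentation, per the labels' protocols. Per the submitters' processing notes, the tools included TopHat2 2.0.12 with the build mm10, HTSeq 0.6.1p1, bcl2fastq 2.16.0.10 and also edgeR 3.10.0. The annotation, strand setting and trimming are not given in the sources used here. Nextera tagmentation as described does not mark the strand, and no molecular identifiers are described, so count intervals cover counting error only.

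The 5 summary lines naming no gene were left out of all totals; reads with no feature came to 45.4% to 53.3% and ambiguous reads to 0.241% to 0.926% of each library. Groups came from the sample titles and characteristics. Genes were filtered with edgeR's filterByExpr, scaled by TMM and tested with the quasi-likelihood F-test (edgeR 4.0.16, R 4.3.3), with 1 coefficient per group, in 9 pairwise comparisons and 3 comparisons of changes. P-values were adjusted by Benjamini-Hochberg over all 12814 genes. The code was tested on simulated data. Alternatives were RLE factors, TMM from autosomal genes, totals without Rn45s and Lars2, no filter and a stricter filter, DESeq2 1.42.0, a replicate block, only the libraries compared, a fold threshold and each library left out. Positions came from a GENCODE annotation of the same build, which placed 99.0% of symbols.

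The 8 genes and the other lists were chosen with earlier results of these data known. Named genes are the 8, up to 4 genes per comparison with the smallest p among the called ones of each other list, and for each of the 8 the 2 genes with the most similar profile (log2 CPM with a prior count of 2, genes of at least 10 CPM in their highest group, predicted genes left out). Ddc, Usp29 and the genes listed as near neighbours of Meg3 fall outside that rule and were named after their values were seen.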

Additional observations from a re-analysis of the deposited data

Results flagged for a closer look

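In 5 of the 8 genes the change on differentiation differed between lines by a test of the difference itself, in edgeR's quasi-likelihood test with 2 libraries per group. Of all tested genes, 2.61% were called for RlimKO-labelled against male, 1.39% for WT female against male and 0.203% for RlimKO-labelled against WT female cells, and of the 8 genes 5, 4 and 2. Each value is a log2 difference of changes. For H19 the change was larger in RlimKO-labelled than in male cells by 6.46 and in WT female than in male cells by 5.82. For Igf2r the differences were -5.22 between RlimKO-labelled and male cells and -4.23 between WT female and male cells, with a fall in both female lines and a rise in males. For Grb10 they were -6.27 between RlimKO-labelled and male, -3.64 between WT female and male, and -2.64 between RlimKO-labelled and WT female cells. For Zim1 they were -7.76, -3.65 and -4.10 in the same 3 comparisons. For Phlda2 the difference was 3.75 between RlimKO-labelled and male cells. The comparisons share libraries and are not independent of each other.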

How the results depend on the processing

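Of 2105 fold changes of the 8 genes recomputed under the alternatives, 1908 kept direction and side of the threshold, 119 lost a call, 50 gained one and 28 changed sign. None of the 1386 that were called in the model of all libraries changed sign. Of the 8 genes, the number called between the undifferentiated female lines was 1 with a replicate block, against 2, and 0 to 2 without single libraries. Between the differentiated female lines it was 3 with a log2 fold change of at least 1, against 5, and 2 to 7 without single libraries. For WT female against male cells it was 3 with only the libraries compared, against 8, and 4 to 8 without single libraries after differentiation. Before differentiation it was 4, and 1 to 7 without single libraries. For undifferentiated RlimKO-labelled against male cells it was 5, and 4 to 8 without single libraries. For the change in RlimKO-labelled against WT female cells it was 2, and 0 to 3. Without both differentiated libraries of extreme Rn45s share, an alternative chosen after seeing the data, 7 genes were called for undifferentiated WT female and 8 for undifferentiated RlimKO-labelled against male cells. The cause was not tested.

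Calls over all genes moved most between the differentiated lines. For WT female against male cells, 1149 genes were called, against 5 with only the libraries compared and 4391 without differentiated male replicate 1. For RlimKO-labelled against male cells, 1489 were called, against 10 and 4530. Between the differentiated female lines 332 were called, against 2154 with only the libraries compared and 12 without RlimKO-labelled replicate 2. Between the undifferentiated female lines 31 were called, 0 to 413 without single libraries. Before differentiation, 849 genes were called for WT female against male cells (167 to 2282 without single libraries) and 1282 for RlimKO-labelled against male cells (310 to 2803). The change differed for 26 genes between the female lines (2 to 485), 178 between WT female and male cells (13 to 1886) and 334 between RlimKO-labelled and male cells (54 to 2016).

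Every value that changed sign was from a comparison not called in the model of all libraries. The Meg3 difference of changes between WT female and male cells was -0.013 with TMM from autosomal genes, -0.0097 without Rn45s and Lars2, -0.15 without both libraries of extreme Rn45s share, and -0.21 to 0.26 without single libraries. Without both libraries, Zim1 on differentiation in RlimKO-labelled cells was -0.0090, Phlda2 in differentiated RlimKO-labelled against male cells -0.13, and the differences of changes of Rian -0.0054 for WT female and -0.0091 for RlimKO-labelled against male cells. Over the fits without single libraries, ranges that crossed 0 between the undifferentiated female lines were -0.15 to 0.066 for Grb10, -0.61 to 0.21 for Zim1, -2.27 to 0.0015 for Cdkn1c and -5.80 to 0.29 for Phlda2. For H19 they were -1.01 to 0.57 between undifferentiated WT female and male cells and -0.15 to 2.36 for the difference of changes between the female lines. For the difference of changes between RlimKO-labelled and male cells they were -0.42 to 1.85 for Cdkn1c and -0.22 to 0.71 for Rian, and between WT female and male cells -0.070 to 0.89 for Rian. Zim1 on differentiation in RlimKO-labelled cells ranged over -0.018 to 1.10, and Phlda2 in differentiated RlimKO-labelled against male cells over -0.25 to 0.62.

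Replicate numbers did not pair the libraries: deviations of same-numbered libraries correlated at -0.066 to 0.10 between groups. With the number as a block, Rian between the undifferentiated female lines lost its call (adjusted p = 0.0564) and Zim1 between undifferentiated WT female and male cells gained one (2.44, adjusted p = 0.0408). The block moved all-gene counts little, with 25 against 31 genes between the undifferentiated female lines. Depth limits the undifferentiated values of Phlda2 and Cdkn1c in the female lines and of Zim1 in all 3 lines, where a pair of libraries held 4 to 13 counts.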
